A study of Homo sapiens with 4 samples.

Results

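The Fat and Dachsous cadherins were followed as 7 genes: FAT1, FAT2, FAT3 and FAT4, the ligands DCHS1 and DCHS2, and the kinase FJX1. They were taken by symbol from the 23228 genes counted, and all 7 were found in each of the 4 libraries. The cells were A673, an established line of Ewing sarcoma with the EWSR1-FLI1 fusion, grown in DMEM with fetal bovine serum. They had been transfected by RNAiMAX with an siRNA against FAT4 (siFAT4) or with a scrambled control siRNA, and were harvested for RNA after 48 h or after 24 h. Each siRNA and time had 1 library of a single line, so no value is backed by a replicate culture, and the sequence of the siRNA is not given in the sources used here.

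Fat and Dachsous proteins are very large cadherins that bind each other across the border between neighbouring cells. In the fruit fly, Fat acts as receptor and Dachsous as ligand, the Golgi kinase Four-jointed phosphorylates their cadherin domains and tunes how they bind, and the pair steers planar cell polarity and the Hippo pathway. In mammals FAT4 is the closest relative of fly Fat and DCHS1 its main ligand, FJX1 is the counterpart of Four-jointed, and FAT1, FAT2 and FAT3 form a more distant branch that is tied to the actin cytoskeleton and cell migration.

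The members were all long transcripts apart from FJX1, as read from their longest transcript in GENCODE release 29 (build GRCh38, which is not the hg19 build named for the counts). FAT4 lies on chromosome 4 from 125316399 to 125492932 on the plus strand and has 17 exons, with 14946 coding bases in a transcript of 16123 bases. FAT1 (27 exons, 14786 bases) and DCHS2 (20 exons, 17125 bases) are on the same chromosome, FAT2 (23 exons, 14534 bases) is on chromosome 5, and FAT3 (25 exons, 19030 bases), DCHS1 (21 exons, 10765 bases) and FJX1 (1 exon, 2450 bases) are on chromosome 11. The sequence of the siRNA is not given, so whether it pairs with any run shown next was not tested. A longest exact run shared with FAT4 is printed for each cadherin relative, in capitals, with 5 bases on each side.
FAT4 beside FAT3: tgcaaGACATTAATGACAACCCCCCggttt
FAT3: ttctgGACATTAATGACAACCCCCCtgtgt
FAT4 beside DCHS1: cgggaGCCCCTGGACTTCGAAGCTcggcg
DCHS1: gcgcgGCCCCTGGACTTCGAAGCTggccc
FAT4 beside DCHS2: tcagcTGCTGGACGTGAATGACAAtgacc
DCHS2: cgccgTGCTGGACGTGAATGACAAccggc
FAT4 beside FAT2: tgactGATGTCAATGACAATCCaccaa
FAT2: ttgagGATGTCAATGACAATCCcccca
FAT4 beside FAT1: tagatGATGTCAATGACAATGtcccc
FAT1: ttgagGATGTCAATGACAATGcacca

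These runs were 20 bases for FAT3 (capitals at chr4:125317135-125317154 in exon 1 of FAT4), 19 for DCHS1 (chr4:125317338-125317356, exon 1), 19 for DCHS2 (chr4:125317439-125317457, exon 1), 17 for FAT2 (chr4:125446471-125446487, exon 8) and 16 for FAT1 (chr4:125434292-125434307, exon 7). All 5 lie in coding sequence of both genes. FAT3 and FAT2 each had 2 runs of their greatest length, of which 1 is printed, and the longest run of FJX1 was 12 bases. Of the 16105 distinct words of 19 bases in the FAT4 transcript, FAT3 held 4, DCHS1 and DCHS2 held 1 each, and FAT1, FAT2 and FJX1 held 0.

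FAT4, the target of the siRNA, was lower in the FAT4 siRNA libraries at both times. It had 60.2 CPM (reads scaled to library size with TMM factors) in siFAT4 48 h and 71.8 CPM in siFAT4 24 h, against 149 CPM in control 48 h and 165 CPM in control 24 h. Behind these stood 941, 1061, 2992 and 3678 reads in the same order. Each FAT4 siRNA library lay well below each control library. At 48 h siFAT4 over control was 0.405 (95% counting interval 0.376 to 0.435), or 59.5% lower, and at 24 h 0.436 (0.407 to 0.467), or 56.4% lower.

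Over both times, in a model with siRNA and time as additive terms, the log2 fold change of FAT4 was -1.25 (SE 0.0978, adjusted p = 8.65e-34 by edgeR's quasi-likelihood test), and it was lower at each time. By the same test 25.9% of 13712 genes were called, 11.9% higher and 14.1% lower. FAT4 ranked 5 by p-value, and 16 among lower genes by fold change within the 10595 genes that averaged 5 CPM or more. Its log2 ratio was the 27th lowest at 48 h and the 8th lowest at 24 h. The p-value rests on single libraries and 1 residual degree of freedom, so it does not measure spread between cultures. In bulk RNA, fewer cells that express a gene and less RNA per cell cannot be told apart.

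**Figure D1:**
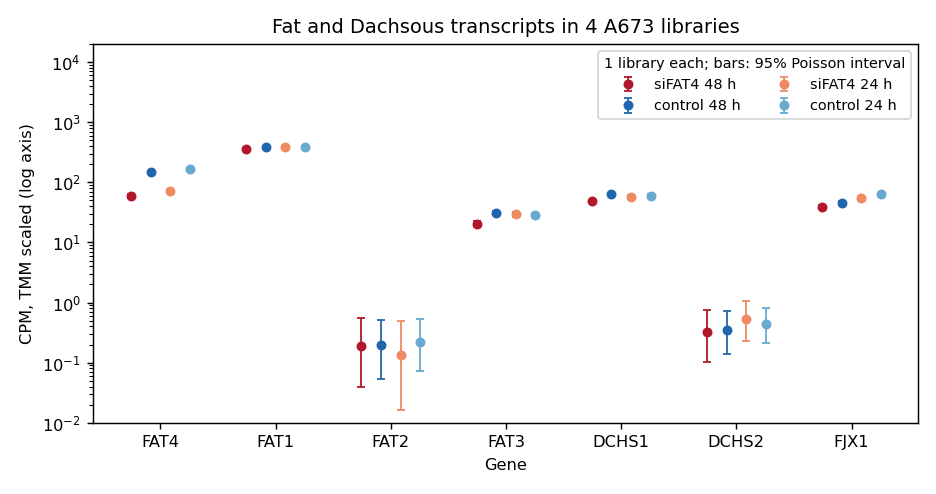
CPM (TMM scaled, log axis) of the 7 genes in each of the 4 libraries, 1 point per library, with 95% Poisson intervals of the counts as bars. FAT4 stands at 60.2 and 71.8 CPM with FAT4 siRNA, below 149 and 165 CPM with control siRNA; FAT2 and DCHS2 stay under 1 CPM throughout.

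Of the 7 members, 5 had enough reads to be tested, and FAT4 was the 1 that passed for the siRNA. The other 4 tested members had adjusted p-values of 0.108 to 0.816. A p that misses the threshold does not show that a gene stayed level, so their values and intervals follow by role.

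FAT1, the most widely expressed paralog and a receptor-like cadherin that contacts the actin machinery, was nearly the same in all libraries. It had 359 CPM in siFAT4 48 h and 386 CPM in siFAT4 24 h, against 382 CPM in control 48 h and 381 CPM in control 24 h. The 4 values lay close together and the groups overlapped. The siFAT4 to control ratio was 0.939 at 48 h (counting interval 0.907 to 0.972) and 1.02 at 24 h (0.982 to 1.05). Over both times its log2 fold change was -0.03 (SE 0.0887, edgeR adjusted p = 0.816), and the 95% interval of the fit held folds from 0.866 to 1.10.

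FAT3, a paralog known from neurons of the mouse retina, gave different values at the 2 times. Its level was 20.3 CPM in siFAT4 48 h and 29.3 CPM in siFAT4 24 h, against 30.7 CPM in control 48 h and 28.3 CPM in control 24 h. The library siFAT4 48 h was the low one, and the other 3 lay within 28.3 to 30.7 CPM. At 48 h the ratio was 0.663 (counting interval 0.577 to 0.760), and at 24 h it was 1.04 (0.915 to 1.17). Over both times the log2 fold change of -0.26 did not pass (SE 0.131, edgeR adjusted p = 0.126), and without the siFAT4 48 h library, with time left out of the model, it was 0.02. FAT3 was 1 of 2 members, with the siRNA target FAT4, at least 1.5-fold lower at 48 h, where 6.9% of the 10595 genes were. At 24 h FAT4 was the 1 such member, and 4.62% of genes were that much lower. FAT3 was 1.51-fold lower at 48 h, and its counting interval reached to both sides of the 1.5-fold cut.

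FAT2, a paralog known from epithelia and the rodent cerebellum, was close to absent. It had 3 and 2 reads in siFAT4 48 h and 24 h, against 4 and 5 reads in control 48 h and 24 h, or 0.135 to 0.224 CPM in all. A floor of 3 reads stood at 0.134 to 0.203 CPM in these libraries, so a difference in FAT2 was not detectable at this depth. FAT2 did not pass the filter on low counts and was not tested.

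The ligand DCHS1 was well expressed and DCHS2 was barely so. DCHS1 had 48.2 CPM in siFAT4 48 h and 57.6 CPM in siFAT4 24 h, against 63.9 CPM in control 48 h and 59.5 CPM in control 24 h. Both FAT4 siRNA values lay below both control values, though that of 24 h only narrowly. The ratio was 0.754 at 48 h (counting interval 0.688 to 0.826) and 0.968 at 24 h (0.887 to 1.06). Over both times DCHS1 had a log2 fold change of -0.23 (SE 0.108, edgeR adjusted p = 0.108), with an interval of 0.739 to 0.990 in folds before adjustment for the number of genes. DCHS2 had 5 and 8 reads in siFAT4 48 h and 24 h, against 7 and 10 reads in control 48 h and 24 h, and was not tested. Its ratio of 0.919 at 48 h had a counting interval of 0.230 to 3.36, and the ratio of 1.21 at 24 h one of 0.415 to 3.40.

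FJX1, the kinase, passed the test for time and not that for the siRNA. It had 38.9 CPM in siFAT4 48 h and 54.7 CPM in siFAT4 24 h, against 45.1 CPM in control 48 h and 63.3 CPM in control 24 h. At each time the FAT4 siRNA library was the lower, and at each siRNA the 48 h library was the lower. The siRNA ratios were 0.861 at 48 h (counting interval 0.776 to 0.956) and 0.865 at 24 h (0.793 to 0.944). Over both times the log2 fold change was -0.21 (SE 0.111, edgeR adjusted p = 0.151). Counting intervals below 1 were common, at 31.8% of genes at 48 h and 31.9% at 24 h.

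**Figure D2:**
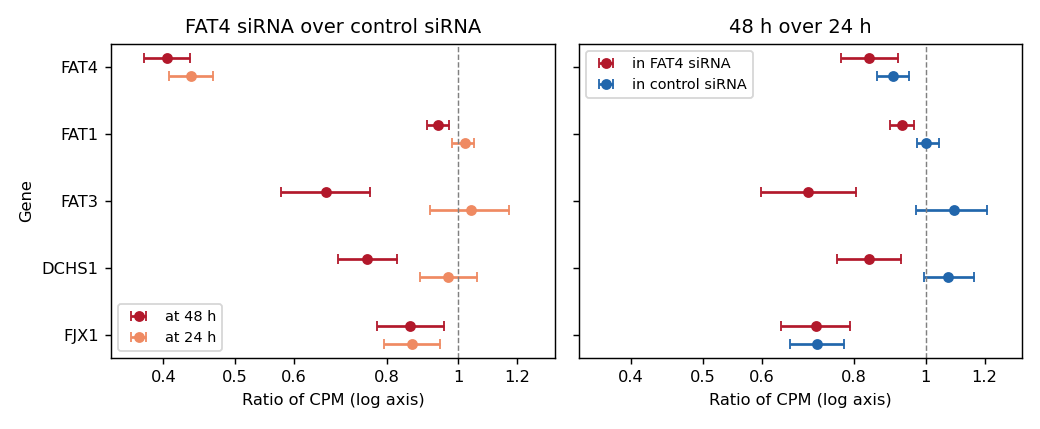
Ratios of CPM on a log axis for the 5 tested genes: siFAT4 over control at 48 h and 24 h on the left, 48 h over 24 h within each siRNA on the right. Points are 1 library over 1 library and bars are 95% counting intervals; FAT4 stands apart at 0.405 and 0.436 on the left, FAT3 and DCHS1 lie at 0.663 and 0.754 at 48 h and near 1 at 24 h, and FJX1 lies at 0.710 and 0.713 on the right.

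DCHS1 and FJX1 are also the GC-rich members, with 62.0% and 63.8% GC in their longest transcripts, against 44.7% to 46.3% for FAT1, FAT3 and FAT4. Among the 2598 genes in the quartile of highest GC content, the median log2 ratio of siFAT4 to control was -0.0964 at 48 h and -0.232 at 24 h. In the quartile that holds FAT1, FAT3 and FAT4 it was 0.0418 at 48 h and 0.0727 at 24 h. When GC content and length were corrected for in the fit, the log2 fold change was 0.06 for DCHS1, 0.0038 for FJX1 and 0.05 for FAT1. With that correction FAT4 fell by 1.19 and FAT3 had -0.19 (edgeR adjusted p = 0.303). These corrected values cover both times together. Uncorrected, the log2 ratio of DCHS1 was -0.41 at 48 h and -0.05 at 24 h, and that of FJX1 -0.22 and -0.21. Whether GC content accounts for either was not tested.

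Compared per kilobase of the longest transcript, the family was led by FAT1 and FJX1. FAT1 stood at 24.3 and 26.1 CPM per kb in siFAT4 48 h and 24 h, against 25.8 and 25.7 CPM per kb in control 48 h and 24 h. Per length, FAT1 lay above 86.2% to 87.1% of the genes with a matched transcript, a set that includes genes without any reads. FJX1 had 15.9 and 22.3 CPM per kb in siFAT4 48 h and 24 h, against 18.4 and 25.8 CPM per kb in control 48 h and 24 h. FAT1 and FJX1 were at the same level per length in control 24 h, and FAT1 was ahead in the other 3 libraries. The order of FAT1 and FJX1 depended on the length used: FJX1 over FAT1 was 1.14 to 1.74 by coding length, but 0.0449 to 0.0688 by the median length of annotated transcripts, which for FAT1 is 683 bases.

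The order of FAT4 and its ligand DCHS1 differed between the siRNAs. FAT4 had 3.73 and 4.45 CPM per kb in siFAT4 48 h and 24 h, against 9.23 and 10.2 CPM per kb in control 48 h and 24 h. DCHS1 had 4.48 and 5.35 CPM per kb in siFAT4 48 h and 24 h, against 5.94 and 5.52 CPM per kb in control 48 h and 24 h. Receptor transcript per ligand transcript (FAT4 over DCHS1, per length) was thus 0.833 and 0.832 in siFAT4 48 h and 24 h, against 1.55 and 1.85 in control 48 h and 24 h. FAT4 thus ranked behind DCHS1 with FAT4 siRNA and ahead of it with control siRNA. Coding length gave nearly the same ratios, but with the median length of annotated transcripts, many of them short fragments, FAT4 stayed above DCHS1 at 1.39 with FAT4 siRNA at both times.

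FAT3 followed at 1.07 and 1.54 CPM per kb in siFAT4 48 h and 24 h, against 1.61 and 1.48 CPM per kb in control 48 h and 24 h. DCHS2 and FAT2 closed the order, at no more than 0.0316 and 0.0154 CPM per kb in any library, and their counts do not separate them at this depth. As a share of the family per length, FAT4 made up 7.55% and 7.44% in siFAT4 48 h and 24 h, against 15.1% and 14.8% in control 48 h and 24 h. FAT1 made up a larger share with FAT4 siRNA, at 49.1% and 43.7% in siFAT4 48 h and 24 h against 42.3% and 37.4% in control 48 h and 24 h. Each share is of a sum that includes FAT4, so a lower FAT4 alone makes the other shares larger. The level of FAT1 itself was 0.939 times control at 48 h and 1.02 times at 24 h. These shares depend on the length used. By median transcript length FAT4 made up 1.1% and 1.2% in siFAT4 48 h and 24 h, against 2.5% and 2.73% in control 48 h and 24 h, and FAT1 89.2% to 93.0% in all. Per kilobase of the longest transcript, the members without FAT4 summed to 45.7 and 55.4 CPM per kb in siFAT4 48 h and 24 h. In control 48 h and 24 h that sum was 51.8 and 58.6 CPM per kb. By this length the sum was not higher with FAT4 siRNA at either time. It too depends on the length used, and most of it was FAT1 and FJX1.

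**Figure D3:**
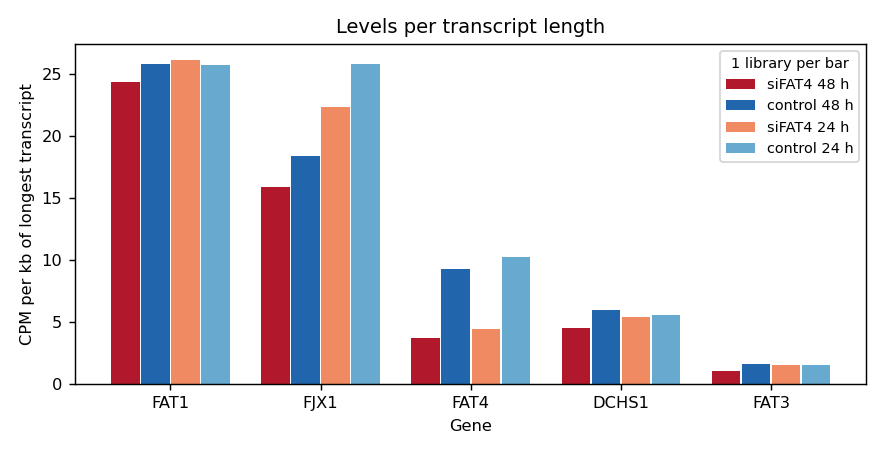
Levels per transcript length (CPM per kb of the longest transcript) of the 5 expressed members, 1 bar per library, without error bars since there is 1 library each. FAT4 lies below DCHS1 with FAT4 siRNA (3.73 and 4.45 against 4.48 and 5.35 CPM per kb) and above it with control siRNA.

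The later libraries were also set against the earlier ones, over both siRNAs. FJX1 fell by 0.49 at 48 h on the log2 scale (SE 0.112, edgeR adjusted p = 0.000161, lower with each siRNA), and was the 1 member called. For time 26.6% of genes were called, 13.8% higher and 12.8% lower. FJX1 at 48 h was 0.710 times its 24 h level with FAT4 siRNA and 0.713 times with control siRNA. Counting intervals below 1 over time were found for 33.8% of genes with FAT4 siRNA and 33.9% with control siRNA. The call was also made by DESeq2 (adjusted p = 0.0174). It was lost when the siRNA was left out of the model, with all 4 libraries (edgeR adjusted p = 0.298) and without any 1 of them (adjusted p of 0.196 to 0.741). FAT4 itself had a log2 fold change of -0.20 with time (edgeR adjusted p = 0.118) and passed with the GC and length correction (adjusted p = 0.0262). FAT1, FAT3 and DCHS1 had log2 fold changes of -0.05, -0.18 and -0.07 with time, and adjusted p-values of 0.310 to 0.718.

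FAT3 and DCHS1 had different values over time under the 2 siRNAs. FAT3 at 48 h was 0.694 times its 24 h level with FAT4 siRNA (counting interval 0.599 to 0.804) and 1.09 times with control siRNA (0.970 to 1.21). DCHS1 was 0.837 times with FAT4 siRNA (0.758 to 0.925) and 1.07 times with control siRNA (0.995 to 1.16). The log2 ratio of siFAT4 to control at 48 h minus that at 24 h was -0.65 for FAT3 (counting interval -0.91 to -0.38), -0.36 for DCHS1 (-0.54 to -0.18), -0.11 for FAT1 (-0.18 to -0.04), -0.11 for FAT4 (-0.25 to 0.04) and -0.01 for FJX1 (-0.20 to 0.19). These intervals cover counting error alone, and 20.4% of genes had one wholly below 0. A model with this difference in it leaves no residual with 1 library per siRNA and time, so the difference was not tested.

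Partners and effectors of the family went in both directions. Of 23 such genes, named from general knowledge of fly and mammalian work, 22 were tested: 4 rose and 6 fell with FAT4 siRNA, and 12 did not pass. Over all genes tested, 11.9% rose and 14.1% fell. The partners' median log2 fold change was -0.141, against -0.0137 over all genes tested. AMOTL2, an angiomotin relative that binds YAP and is also one of its targets, rose by 0.56 (SE 0.0952, edgeR adjusted p = 2.13e-07). It had 115 and 176 CPM in siFAT4 48 h and 24 h, against 77.8 and 121 CPM in control 48 h and 24 h, so the FAT4 siRNA library was higher at each time. With 1 library left out and time not modelled, its log2 fold change ranged from 0.22 (without siFAT4 24 h) to 0.90 (without control 24 h). It was 0.27 without control 48 h and 0.85 without siFAT4 48 h. Such fits mix in the difference between times, which was -0.62 for AMOTL2 on the log2 scale. Within each time its log2 ratio (1 CPM added) was 0.56 at 48 h and 0.54 at 24 h.

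ENAH, an actin regulator that binds the tail of FAT1, rose by 0.43 (SE 0.0896, adjusted p = 3.94e-05), with 300.0 and 328 CPM in siFAT4 48 h and 24 h against 230.0 and 237 CPM in control 48 h and 24 h. The cell polarity scaffold DLG1 rose by 0.46 (adjusted p = 1.89e-05). HOMER3, a scaffold of the Homer family that binds FAT1, fell by 0.82 (SE 0.169, adjusted p = 2.34e-05), with 7.99 and 8.93 CPM in siFAT4 48 h and 24 h against 16.4 and 13.6 CPM in control 48 h and 24 h. These 4 were also called by DESeq2 and after correction for GC and length. The palmitoyltransferase ZDHHC8 fell by 0.44 (adjusted p = 0.00260) and the Crumbs complex scaffold INADL by 0.44 (adjusted p = 0.0119), but DESeq2 called neither, and the correction left ZDHHC8 at -0.14 (adjusted p = 0.374). With the correction 4 partners were higher and 3 lower. Within each time the log2 ratio (1 CPM added) of INADL was -0.43 at 48 h and -0.39 at 24 h. That of ZDHHC8 was -0.32 at 48 h and -0.53 at 24 h. With any 1 library left out and time not modelled, at most 1 partner was called higher and 0 lower, and the log2 fold change ranged from -0.63 to -0.24 (without control 24 h) for ZDHHC8 and from -0.70 to -0.13 (without control 48 h) for INADL, which had -0.19 without siFAT4 24 h.

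Of 12 kinases of the Golgi and secretory pathway that are related to FJX1, 9 were tested, 1 rose and 2 fell, where 11.9% of all genes tested rose and 14.1% fell. Their median log2 fold change was 0.005, against -0.0137 over all genes. FAM69B fell by 0.70 (SE 0.138, edgeR adjusted p = 8.96e-06), with 22.0 and 13.6 CPM in siFAT4 48 h and 24 h against 33.6 and 23.6 CPM in control 48 h and 24 h. The secreted tyrosine kinase PKDCC fell by 0.37 (adjusted p = 0.00263) and FAM69A rose by 0.36 (adjusted p = 0.0201), and neither passed in DESeq2 or after correction for GC and length. With any 1 library left out and time not modelled, 0 of these kinases were called. FAM69B then ranged from -1.04 (without siFAT4 48 h) to -0.37 (without siFAT4 24 h), with -0.41 without control 48 h. FAM69A ranged from 0.11 (without control 24 h) to 0.62 (without control 48 h). Within each time the log2 ratio (1 CPM added) of FAM69B was -0.59 at 48 h and -0.76 at 24 h. That of FAM69A was 0.21 at 48 h and 0.49 at 24 h. FAM20A, FAM69C and CXorf36 had 0 reads in all 4 libraries.

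Among 14 other atypical cadherins 8 were tested, 0 rose and 3 fell, where 11.9% of all genes tested rose and 14.1% fell. Their median log2 fold change was -0.336, against -0.0137 over all genes. CLSTN2, a calsyntenin of the synaptic membrane, fell by 0.61 (SE 0.0975, edgeR adjusted p = 2.36e-08), with 63.6 and 97.5 CPM in siFAT4 48 h and 24 h against 121 and 120.0 CPM in control 48 h and 24 h. CDH23, the cadherin of the inner ear tip link, fell by 0.48 (adjusted p = 8.96e-06), with 111 and 109 CPM in siFAT4 48 h and 24 h against 163 and 144 CPM in control 48 h and 24 h. CDHR3, a small cadherin of airway cells, fell by 0.72 (adjusted p = 0.0068) at low counts, and DESeq2 did not call it. After correction for GC and length CLSTN2 had -0.51, CDHR3 -0.72 and CDH23 the smaller value of -0.24 (adjusted p = 0.0267), and CELSR2 was called higher. With any 1 library left out and time not modelled, at most 1 of the cadherins was called lower. CLSTN2 then had -0.28 without siFAT4 48 h (adjusted p = 0.708) and -0.92 without siFAT4 24 h (adjusted p = 0.0229), and CDHR3 had -0.46 without siFAT4 48 h.

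**Figure D4:**
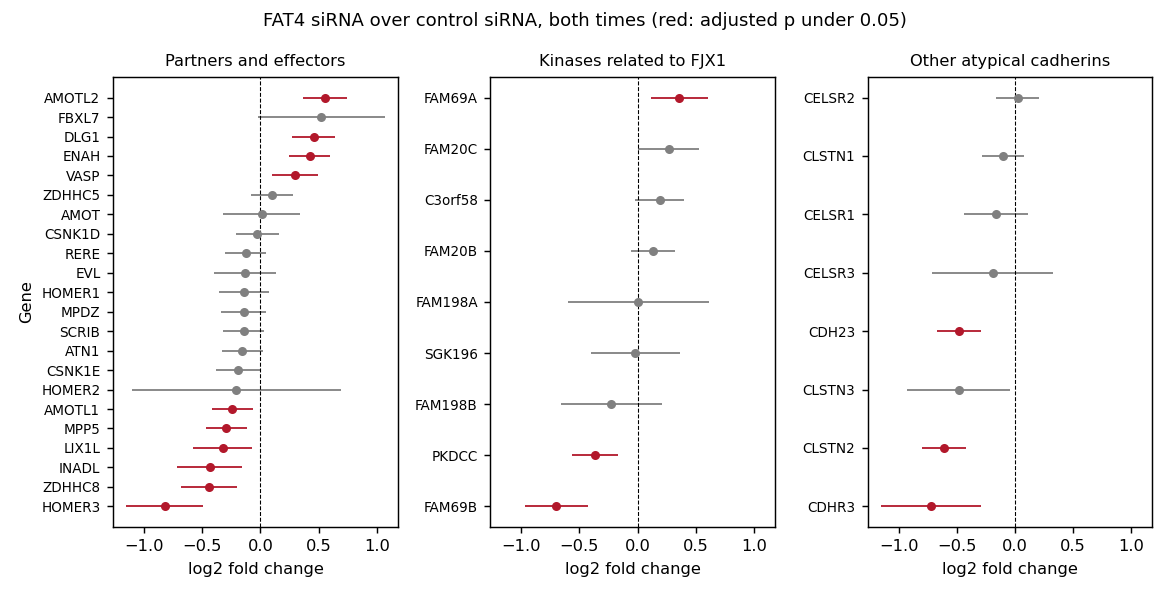
Log2 fold changes of siFAT4 over control across both times (edgeR fit over 4 libraries) for the tested genes of 3 lists, with 95% intervals as bars; red points have an adjusted p under 0.05. Calls fall on both sides of 0 among partners and among kinases, and on the lower side among the other atypical cadherins, from CLSTN2 at -0.61 to CDH23 at -0.48 with CDHR3 at -0.72.

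The genes whose pattern over the 4 libraries was most like that of FAT4 were PCSK1N, BAK1, PPP6C, MCF2L and IFI6. Likeness was the Euclidean distance between log2(CPM + 1) values centred on each gene's mean, over genes averaging 5 CPM or more. It was 0.110 for PCSK1N, 0.138 for BAK1, 0.151 for PPP6C, 0.164 for MCF2L and 0.218 for IFI6, against a median of 1.29 over all these genes. The named genes were picked for the smallest distances, so their place below the median follows from that choice. The added 1 CPM lessens the change of genes at few CPM. PCSK1N had 2.62 and 3.18 CPM in siFAT4 48 h and 24 h, against 8.55 and 8.96 CPM in control 48 h and 24 h. Its fitted log2 fold change was -1.59, against -1.25 for FAT4 and -1.15 for PPP6C. PPP6C, a catalytic subunit of protein phosphatase 6, had 48.8 and 53.7 CPM in siFAT4 48 h and 24 h against 112 and 115 CPM in control 48 h and 24 h. BAK1, a pore-forming member of the BCL2 family, had 8.89 and 11.4 CPM in siFAT4 48 h and 24 h against 21.5 and 24.7 CPM in control 48 h and 24 h.

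A pair of 7-base words, TTGGACT and AGCCTTA, taken from an earlier look at these libraries, was searched in the members on the sense strand; neither was tested against the ratios here. TTGGACT is shown with 8 bases on each side because FAT4 is the single member whose 3' UTR holds it.
FAT4 exon 9, coding: caaagattTTGGACTgaattcag
FAT4 exon 15, coding: aagggcgcTTGGACTaccacatg
FAT4 exon 17, 3' UTR: gcttatgaTTGGACTtattttcc

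These 3 sites are at chr4:125450046-125450068, chr4:125481557-125481579 and chr4:125492593-125492615 on GRCh38. TTGGACT is in 8.9% of the 17544 genes with a 3' UTR of at least 50 bases, and in the coding sequence of 53.5% of the 157 genes with at least 9000 coding bases. FAT1, FAT3 and DCHS1 hold it 1 time each and FAT2 2 times in coding sequence, and DCHS2 and FJX1 do not hold it. AGCCTTA is in the 3' UTR of DCHS1 (1 time) and DCHS2 (2 times) and in 8.27% of all such UTRs. The matches are a description of the sequences only.

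Gene counts summed to 15413960 in siFAT4 48 h, 15196813 in siFAT4 24 h, 19614913 in control 48 h and 22625833 in control 24 h. In each library, reads assigned to no gene made up 19.48% to 20.54% of the sum of genic, ambiguous and such reads. Of 13 Ewing sarcoma markers 12 reached 1 CPM, summing to 4380 and 5080 CPM in siFAT4 48 h and 24 h against 4360 and 4340 CPM in control 48 h and 24 h. Most of each sum was CCND1, at 2980 and 3380 CPM in siFAT4 48 h and 24 h against 2690 CPM in each control library. Of the 12 markers tested, 3 were called higher and 4 lower with FAT4 siRNA. Over all genes tested, 11.9% were called higher and 14.1% lower. The lower markers were NKX2-2 at a log2 fold change of -0.85 (edgeR adjusted p = 2.21e-13), PRKCB at -0.34, NPY1R at -0.32 and NR0B1 at -0.29. The higher ones were GLI1 at 0.45 (log2 ratio 0.98 at 48 h and -0.22 at 24 h), LIPI at 0.31 and CCND1 at 0.24. CD99, the surface marker in the region shared by the X and Y chromosomes, was listed at 0 in all 4. Markers of epithelium, blood and endothelium summed to no more than 2.06 CPM per list in any library.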

How the data were processed

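The authors deposited raw read counts (whole numbers for each gene), 1 library per file. Per the labels' protocols, RNA was extracted with TRIzol and made into stranded mRNA libraries. CASAVA 1.8.2, HTSeq, SAMtools, TopHat2 and build hg19 are named per the submitters' processing notes. The annotation, counting mode and strand setting are not stated there, so reads of overlapping or antisense genes cannot be told apart from a gene's own. The 5 counter entries that name no gene were left out of totals and tests; reads assigned to no gene were 19.48% to 20.54% of the sum of genic, ambiguous and such reads.

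Tests used edgeR 4.0.16 (R 4.3.3), and TMM factors were 0.9727 to 1.026. The filter filterByExpr, with a minimum count of 10 and a total of 15, kept 13712 genes. The quasi-likelihood model had additive terms for siRNA and time across the 4 libraries and left 1 residual degree of freedom. It used two-sided tests with a Benjamini-Hochberg adjusted threshold of 0.05. The spread that edgeR names the biological coefficient of variation was 0.0737. It came from departures from the additive model and not from replicate cultures. The prior degrees of freedom were infinite, so the tests used a spread pooled over genes. Standard errors were derived from fold change and F. The fit was tested on simulated data. Single-library ratios of CPM have exact 95% Clopper-Pearson intervals. Such intervals, and a floor set at 3 counts in a library, reflect counting error alone. Lengths, GC content and sequences come from GENCODE release 29, matched for 95.5% of tested genes.

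Alternatives were other scaling, DESeq2 1.42.0, other filters, a GC and length correction, models without the other factor, leaving out each library, and other lengths and pseudocounts. Named genes were the 7 members, up to 6 called genes per list by size of change, and the 5 nearest to FAT4 in pattern. Called list members beyond that rule are counted only. CELSR2, the called Ewing sarcoma markers and the genes at 0 were named after their values were seen. The members, lists and words were chosen with earlier results of these data known.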

Additional observations from a re-analysis of the deposited data

Results flagged for a closer look

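The siRNA ratio of FAT3 had opposite signs at the times: log2 -0.59 at 48 h and 0.05 at 24 h, a difference of -0.65 (48 h minus 24 h). FAT1 had -0.09 at 48 h and 0.02 at 24 h, a difference of -0.11. Each time holds 1 library per siRNA, and neither difference was tested.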

How the results depend on the processing

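Calls over all genes depended on the model. For the siRNA, 3555 genes were called, against 1234 by DESeq2 and 0 by edgeR without the time term (1706 at an unadjusted p under 0.05). For time, 3646 were called, against 1176 by DESeq2 and 50 without the siRNA term. With 1 library left out and the compared factor alone, where the lone library of an arm is assumed to vary like the other arm, the siRNA called 240 genes without siFAT4 24 h, 135 without siFAT4 48 h, 76 without control 24 h and 59 without control 48 h. For time the same 4 fits called 72, 373, 74 and 581. FAT4 passed for the siRNA in each of these fits (log2 fold change -1.38 to -1.10, edgeR adjusted p of 0.000601 to 0.00589), but not in the one-factor fit of all 4 libraries (adjusted p = 0.171). Under the remaining alternatives it passed at -1.27 to -1.19. Uncalled values that changed sign with the GC and length correction were FAT1 (0.050), DCHS1 (0.055) and FJX1 (0.0038) for the siRNA, and FAT1 for time with library totals alone (0.0077). Without siFAT4 48 h, the siRNA values were 0.048 for FAT1, 0.021 for FAT3 and 0.041 for FJX1, and the time values 0.071 for FAT3, 0.31 for FAT4 and 0.11 for DCHS1. Without control 24 h, FJX1 had 0.052 for the siRNA and FAT4 0.54 for time. FAT4 without control 48 h had -0.98 for time, a larger value of the same sign as its main value of -0.20. With 1 library left out, 1 time holds a single siRNA and the other holds both. The time value of such a fit therefore mixes in the siRNA difference, and its siRNA value mixes in the time difference. The causes were not tested. Lower partners numbered 3 with the correction and 1 by DESeq2, against 6. No paired analysis was possible because the labels number no replicates; the time term itself sets siFAT4 against control within each time, and the fits without it drop that match. Depth limits FAT2 and DCHS2, at 10 reads or fewer per library.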
